A study of Mus musculus with 6 samples.

Results

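The 6 genes described here are Vsig8, Kng1, Tmem119, Sftpd, Kcna1 and Fap, genes whose RNA was lower in mouse embryonic epidermis that lacked both Sox4 and Sox11. They were picked as lower on both dcKO arrays, so their dcKO values are given as a description with no test. They are 6 of the 21370 genes named on the array, and they are measured by 8 of its 55681 probes. Their values on the single-knockout arrays were not part of the choice, although it was known beforehand that several of them lay above wild type on a Sox11cKO array.

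Epidermis of E16 embryos, labelled 129SvEx:C57BL/6, was compared on 6 arrays in 2 colours. Each array held RNA of 1 knockout sample against RNA of a wild-type littermate. Sox4cKO lacked Sox4, Sox11cKO lacked Sox11 and Sox4/11 dcKO lacked both, with 2 biological replicates per genotype and the dyes swapped between them. The floxed alleles, on a mixed 129SvEx:C57BL/6 background, were deleted by Krt14-Cre from an FVB/N line, so the embryos also carried FVB/N background, and the deletion was directed to keratin 14 cells and their progeny. The mice were derived from a cross that also carried a Sox12 null allele, and the labels do not give the Sox12 genotype of either the knockout or the wild-type embryos. The epidermis was peeled from dorsal skin after dispase treatment. Whether a sample was 1 embryo or a pool, and whether arrays shared a wild-type sample, is not stated in the sources used here.

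SOX4 and SOX11 are closely related HMG-box transcription factors of the SOXC group that are active in embryonic tissues and are known to stand in for each other in part. The 6 genes do not belong to 1 pathway. VSIG8 is an immunoglobulin-domain membrane protein described as a ligand of the T-cell checkpoint receptor VISTA. Kininogen, the product of Kng1, is the precursor from which kallikreins release bradykinin. TMEM119 is a small membrane protein used as a microglia marker that is also known in osteoblast differentiation. Surfactant protein D, encoded by Sftpd, is a secreted collectin of innate defence best known from the lung. KCNA1 is a Shaker-type voltage-gated potassium channel of neurons, and FAP is a serine protease that cuts after proline and is best known from activated fibroblasts.

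A promoter entry was found in the RefSeq-derived table for 1 of the 6 genes, Vsig8, which had the lowest dcKO mean of all probes. The 250 bases before its first listed start are shown because this is the only member with promoter sequence at hand. The stretch is chr1:172555688-172555937 on GRCm38.p6, on the plus strand, with a GC content of 60%.
Vsig8: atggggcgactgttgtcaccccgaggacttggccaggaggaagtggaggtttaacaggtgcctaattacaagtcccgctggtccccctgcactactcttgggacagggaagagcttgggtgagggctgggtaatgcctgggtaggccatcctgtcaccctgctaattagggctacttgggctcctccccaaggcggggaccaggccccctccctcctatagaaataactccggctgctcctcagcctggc
No base is in capitals because none of the searched motifs was found. The letters AACAAAG and AACAAT, which are cores of SOX binding motifs, and TATAAA were searched on both strands in the window from 250 bases before to 50 bases after each of the 2 Vsig8 starts. In all 32851 promoter windows of the table, AACAAAG was present in 5.85%, AACAAT in 10.7% and TATAAA in 13.6%. The missing matches are a description of these windows only.

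The share of non-control spots marked well above background ran from 38.9% to 43.6% over the 12 channels, and no spot was saturated. All 6 arrays lay on 1 slide and were scanned together. All 6 basal keratinocyte markers, among them Krt5 and Krt14, and all 6 suprabasal markers were well above background in at least 4 of the 6 wild-type samples, as the label epidermis asks. Of the targeted genes, the dimmer Sox4 probe was not well above background in the knockout and was at least 3.05-fold lower in Sox4cKO and at least 3-fold lower in dcKO. The brighter Sox4 probe differed less, from a mean log2 signal of 9.43 to 9.01 in Sox4cKO and from 9.21 to 8.38 in dcKO. The brighter Sox11 probe was well above background in 1 wild-type sample of the dcKO pair and in neither dcKO sample, at least 1.36-fold lower. In Sox11cKO it gave no measurable fold, so the array hardly checks the loss of Sox11. Xist was well above background in both samples of replicate 2 of Sox4cKO and of Sox11cKO, and Y-linked transcripts were in both samples of the other 4 arrays, so knockout and wild type on an array were alike in sex.

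In epidermis lacking both Sox4 and Sox11, Vsig8 was lowest, and the other 5 genes followed in the order Kng1, Tmem119, Sftpd, Kcna1 and Fap. Among the means of all 55681 probes, ordered from the lowest, they held the places 1, 2, 4, 6, 18 and 23. The values below are log2 ratios of knockout over wild type, so negative values mean less RNA in the knockout. They chose the genes and so support nothing. The order is that of the deposited ratios and was not the same under every alternative. Kng1 was lower than Vsig8 with the Feature Extraction ratios (-3.83 against -3.24) and above Tmem119 and Sftpd with an offset of 50 (-1.96 against -2.17 and -2.14). Without dcKO replicate 2, the fitted values were -2.86 for Sftpd and -2.85 for Vsig8. These are the replicate 1 ratios of -3.72 and -3.24, adjusted by a dye coefficient estimated from the single-knockout arrays. In bulk epidermis, fewer cells of a type and less RNA per cell cannot be told apart.

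Vsig8 gave log2 ratios of -3.24 and -2.94 in dcKO replicates 1 and 2, a mean of -3.09 ± 0.21 (SD, n = 2), or 8.53-fold lower. Its normalized log2 signal was 8.39 and 9.08 in the dcKO samples, while the other 10 samples lay between 9.69 and 12.53. Both dcKO samples therefore lay below every wild-type and every single-knockout sample. No other probe of the array had a lower dcKO mean than that of this membrane protein gene.

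Kng1 gave -2.61 and -2.52, a mean of -2.56 ± 0.066 (SD, n = 2), or 5.91-fold lower. This size changed with the processing, with means of -3.83 from the Feature Extraction ratios, -1.96 with an offset of 50 and -1.28 over both probes. The dcKO signal was 5.31 and 5.98, and the probe was well above background on 1 of the 2 dcKO arrays. These levels overlapped the other 10 samples, which lay between 5.41 and 8.5, through a single wild-type sample on the array of Sox11cKO replicate 2. A second Kng1 probe, for another transcript, was not well above background in any sample, and it read 0.02 and -0.02 in dcKO.

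Tmem119 gave -2.56 and -2.45, a mean of -2.51 ± 0.081 (SD, n = 2), or 5.69-fold lower. Its dcKO signal of 6.29 and 7.01 lay below the other 10 samples, which ranged from 7.58 to 10.004. As for Vsig8, the groups did not overlap.

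Sftpd was the most uneven of the 6 genes. It gave -3.72 in dcKO replicate 1 and -1.14 in replicate 2, 13.2-fold and 2.21-fold lower, with a mean of -2.43 ± 1.82 (SD, n = 2). Its second probe, for the same transcript, read -2.66 and -1.27, so the replicates differed in the same direction on both probes. The first probe's dcKO signal was 5.94 and 9.21, against 5.58 to 11.21 in the other 10 samples. The dcKO replicate 2 sample was above 4 of the other 10, so the Sftpd groups overlapped.

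Kcna1 gave -2.0 and -1.79, a mean of -1.90 ± 0.15 (SD, n = 2), or 3.73-fold lower. The signal of this potassium channel gene was 6.06 and 6.31 in dcKO and 6.72 to 8.68 elsewhere, with no overlap. Fap gave -1.94 and -1.58, a mean of -1.76 ± 0.26 (SD, n = 2), or 3.39-fold lower. Its dcKO signal was 7.63 and 8.30, and the next sample, Sox4cKO replicate 1, was at 8.36, so the Fap groups were separate by a narrow margin. Of all probes well above background in at least 4 wild-type samples, 5.06% had both dcKO samples below the other 10, and 30.8% were below 0 on both dcKO arrays. Vsig8, Tmem119, Kcna1 and Fap were in the first set and all 6 genes in the second, which follows from how they were chosen.

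**Figure D1:**
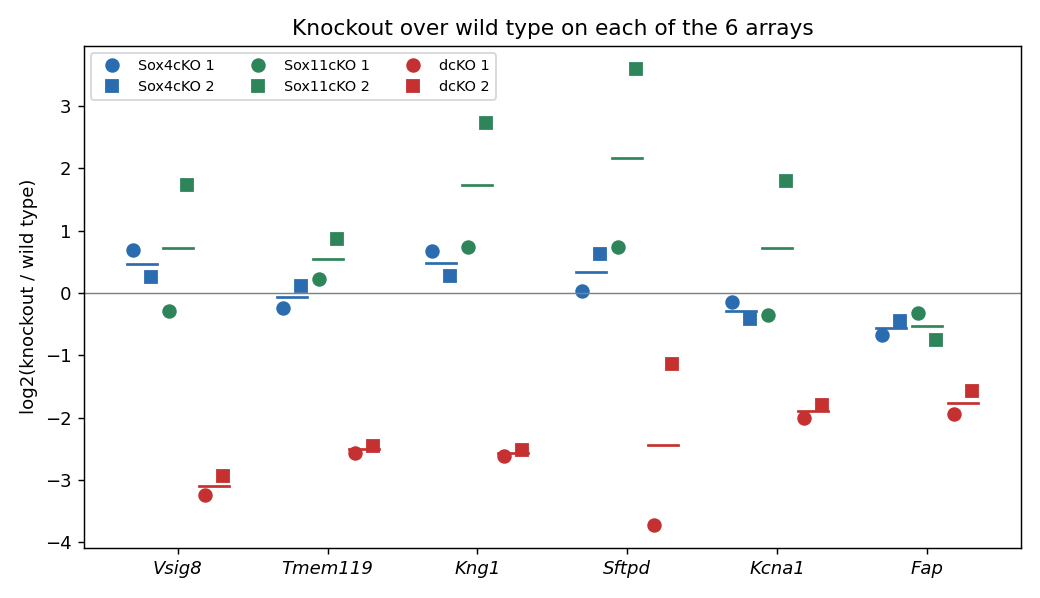
Log2 ratio of knockout over wild type (vertical axis) for the 6 genes (horizontal axis) on each array. Circles are replicate 1, squares replicate 2 and lines the means of 2. The dcKO points lie between -3.72 and -1.14, and the highest point is Sftpd on Sox11cKO replicate 2 at 3.60.

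Without Sox4 alone, none of the 6 genes passed the test. The test was limma's moderated test over all probes with Benjamini-Hochberg adjustment, and a call needed an adjusted p under 0.05 and a log2 change over 1.5 in size. In Sox4cKO, 0.00539% of all probes passed it, 0 of the 6 genes did, and the adjusted p of the 6 lay between 0.785 and 0.97. At an unadjusted p under 0.05, 1 of the 6 passed, Fap, beside 6.18% of all probes.

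Vsig8 read 0.68 and 0.25 in Sox4cKO, a mean of 0.47 with an SE of 0.33. Kng1 read 0.68 and 0.27, a mean of 0.48 with an SE of 0.33. Sftpd read 0.04 and 0.62, a mean of 0.33 with an SE of 0.32. These 3 genes were above 0 on both Sox4cKO arrays and below 0 on both dcKO arrays, and 22.7% of probes well above background in at least 4 wild-type samples were above 0 on both Sox4cKO arrays. Tmem119 read -0.24 and 0.11, with a mean of -0.07. Kcna1 read -0.15 and -0.42, with a mean of -0.29. Fap read -0.67 and -0.45, a mean of -0.56 ± 0.16 (SD, n = 2). Kcna1 and Fap were below 0 on both arrays, as were 23.6% of the same probes.

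In Sox11cKO the replicates of these genes disagreed, and the replicates also differed in dye and in sex. Replicate 1 was near wild type, with values from -0.36 to 0.74 and a median over the 6 genes of -0.03. Replicate 2 was above wild type for 5 of the 6, with values from -0.76 to 3.60 and a median of 1.76. The median over all probes was -0.01 on that array.

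Sftpd read 0.74 in replicate 1 and 3.60 in replicate 2, a mean of 2.17 ± 2.02 (SD, n = 2). Its second probe read 0.98 and 2.39. This collectin gene was thus above wild type on both Sox11cKO arrays and both probes, 12.1-fold on replicate 2 by the first probe. Kng1 read 0.74 and 2.72, a mean of 1.73 ± 1.40 (SD, n = 2). Tmem119 read 0.23 and 0.87, a mean of 0.55 ± 0.45 (SD, n = 2). Sftpd, Kng1 and Tmem119 were the members above 0 on both arrays, beside 22.1% of probes well above background in at least 4 wild-type samples.

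Vsig8 read -0.29 and 1.73, a mean of 0.72 ± 1.43 (SD, n = 2). Kcna1 read -0.36 and 1.80, a mean of 0.72 ± 1.52 (SD, n = 2). For both, the replicates lay on opposite sides of wild type and the SD was larger than the mean. Fap read -0.32 and -0.76, a mean of -0.54 ± 0.31 (SD, n = 2), and was the only member below 0 on both Sox11cKO arrays. Fap was the only one of the 6 genes that was below 0 on all 6 arrays.

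None of the 6 genes passed the test in Sox11cKO. The adjusted p was 0.359 for Sftpd, 0.0951 for its second probe, 0.558 for Kng1, 0.694 for Tmem119 and Fap, 0.717 for Vsig8 and 0.721 for Kcna1, and 0% of all probes were called. At an unadjusted p under 0.05, 4 of the 6 passed, namely Fap, Kng1, Sftpd and Tmem119, beside 7.05% of all probes. The SE of the Sftpd mean in this fit was 0.32, far below the SD of 2.02 between its replicates. Replicate 2 was above replicate 1 in all 3 genotypes, a difference that the dye coefficient takes up, and the fit shares 1 spread over the 3 genotypes. Without the dye coefficient, which is also the replicate block, the adjusted p of Sftpd was 1. Without any 1 of the Sox4cKO or dcKO arrays Sftpd was called, at adjusted p from 0.00236 to 0.00633, and without either dcKO array Kng1 was called as well, at an adjusted p of 0.0429. Without Sox11cKO replicate 1, the fitted value of Kng1 was 2.80. Without Sox11cKO replicate 2 the fitted values were 1.53 for Sftpd and 0.66 for Kng1. Replicate 1 itself read 0.74 for both, and the dye coefficient, estimated from the other genotypes, makes the difference. Over the alternatives that kept both Sox11cKO arrays, the adjusted p reached from 0.00236 to 1 for Sftpd and from 0.0429 to 1 for Kng1.

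On Sox11cKO replicate 2, Kcna1, Vsig8, Kng1 and Sftpd exceeded a log2 ratio of 1, as 1.15% of probes well above background in at least 4 wild-type samples did. The normalized signals of both samples on that array show which of them stood apart. For Sftpd the wild-type sample was at 5.58, against 8.26 to 10.59 in the other 5 wild-type samples, while the Sox11cKO sample was at 9.18. For Kng1 the wild-type sample was at 5.41, against 6.32 to 8.5 in the others, and the Sox11cKO sample was at 8.13. For Kcna1 the wild-type sample was at 6.72, against 7.13 to 8.68, and the Sox11cKO sample was at 8.52. In these 3 genes it was the wild-type sample that lay outside its group, whereas the Sox11cKO sample lay within the range of the other wild-type samples.

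Vsig8 was at 10.53 in that wild-type sample, below 4 of the other 5, and at 12.26 in the Sox11cKO sample. Tmem119 was at 8.94, close to the median of 9.01 of the other 5 wild-type samples. Fap was at 10.62, the highest of the 6 wild-type samples. Set against the median of the other 5, the wild-type sample lay at -4.35 for Sftpd, -2.52 for Kng1, -1.38 for Kcna1, -1.17 for Vsig8, -0.07 for Tmem119 and 0.74 for Fap on the log2 scale. Over 21524 probes the median of this difference was 0.05, and the 1st percentile was -2.09. The lowest wild-type value was on that array for 3 of the 6 genes, beside 22.5% of all these probes. For Vsig8, Tmem119 and Fap it was on the Sox4cKO replicate 1 array, at 9.69, 7.82 and 9.03. That wild-type sample had the highest summed level of the 9 dermal fibroblast markers, 14.5 against 12.8 to 13.7 in the others. For the 6 skeletal muscle markers it had 10.3, against 7.67 to 8.52. The part of this sample in the Sox4cKO values was not tested.

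**Figure D2:**
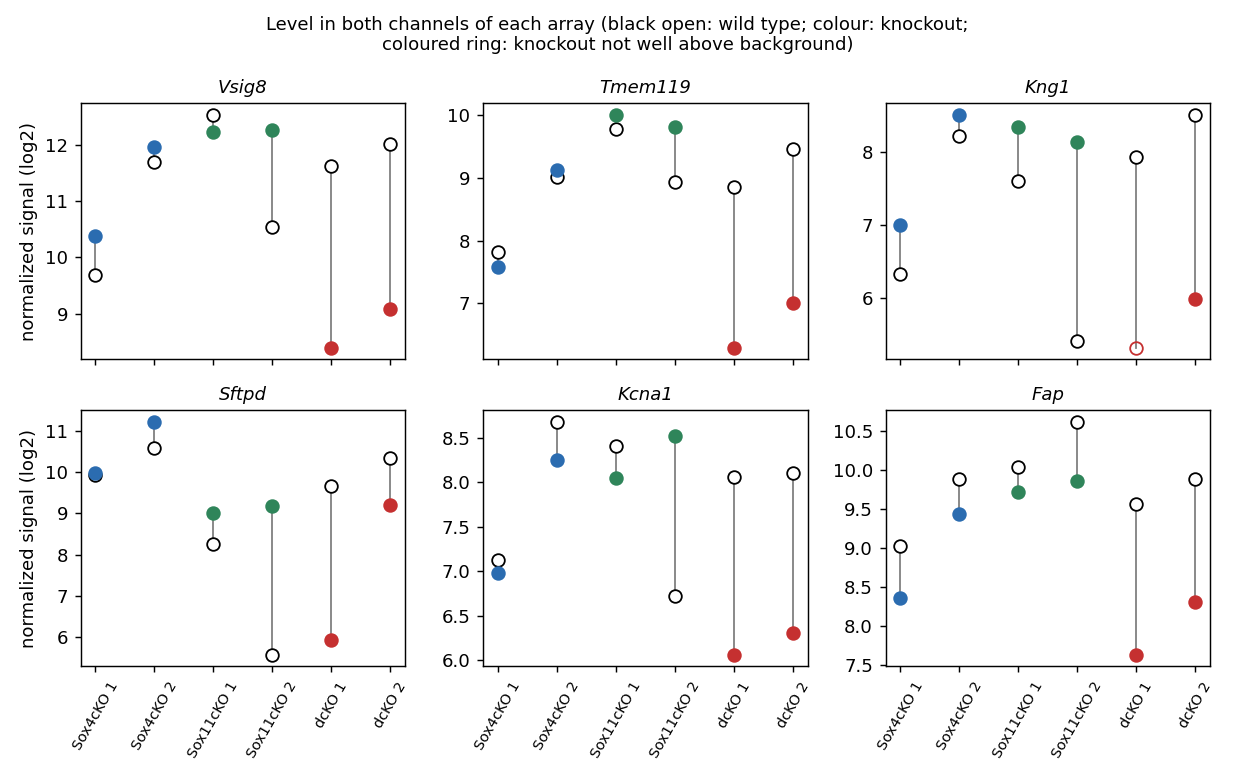
Normalized log2 signal (vertical axes, which differ between panels) in the wild-type sample (open black) and the knockout sample (coloured) of each array. The Sftpd wild-type sample on the Sox11cKO replicate 2 array is at 5.58, below the other 5 wild-type samples at 8.26 to 10.59, and a coloured ring marks the Kng1 dcKO sample that was not well above background.

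Other genes moved with the wild-type sample of the Sox11cKO replicate 2 array. Its summed level of the 6 suprabasal keratinocyte markers was 16.6 on the log2 scale, against 17.3 to 17.8 in the other 5 wild-type samples and 17.8 in the Sox11cKO sample on the same array. The median log2 ratio of these markers there was 1.09. Its summed level of the 5 red blood cell genes was 12.7, against 13.9 to 15.2. Basal keratinocyte markers were level, at 16.8 in the wild-type sample and 16.8 in each of the other 5. The part of these values in the Sox11cKO result was not tested.

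The Sox4cKO and Sox11cKO effects were also set against each other, a contrast that does not use the dcKO arrays other than for the spread. The difference, Sox4cKO minus Sox11cKO, was -1.84 (SE 0.46) for Sftpd, -1.25 (SE 0.46) for Kng1, -1.01 (SE 0.47) for Kcna1, -0.62 (SE 0.20) for Tmem119, -0.25 (SE 0.46) for Vsig8 and -0.02 (SE 0.23) for Fap. None was called, with adjusted p from 0.929 to 0.999, beside 0.0018% of all probes. At an unadjusted p under 0.05, 3 of the 6 passed, Kng1, Sftpd and Tmem119, beside 5.28% of all probes. So the single knockouts were not shown to differ in any of the 6 genes, nor to be alike, since the differences of Sftpd, Kng1 and Kcna1 were larger than 1 on the log2 scale.

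Of the other genes of the members' families and pathways, listed by function, 1 was lower in dcKO by adjusted p, Kng2, and most were not well above background in enough wild-type samples to be read. Of 51 such genes in 6 lists, 18 were well above background in at least 4 wild-type samples. In dcKO, 0 of the 51 were called lower, as 0.0341% of all probes were, and none was called in either direction, beside 0.207% of all probes. At an unadjusted p under 0.05, 9 of the 51 passed in dcKO, beside 9.89% of all probes. The median dcKO log2 ratio of the 51 was -0.01, and the median of all probes was -0.0001. In each single knockout 0 of the 51 were called, and 2 of the 51 passed at an unadjusted p under 0.05.

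Kng2, a paralog of Kng1 that also encodes kininogen, came nearest. It gave -1.04 and -1.27 in dcKO, a mean of -1.15 with an adjusted p of 0.0328, and 0.309% of all probes passed that threshold in the lower direction. The size was under the fold threshold, and Kng2 was not well above background in either dcKO sample, so it was at least 2.06-fold lower. In Sox11cKO it read 0.84 and 1.47, and in Sox4cKO 0.71 and 0.20, a pattern with the same signs as Kng1 on all 6 arrays. Kng1 and Kng2 are closely related copies in the mouse, and whether a probe of one also binds the other was not tested. Of the rest of the kinin system, Serping1, the inhibitor of plasma kallikrein, read -0.40 and -0.27 in dcKO, with an adjusted p of 0.467. That probe was dim, well above background in 4 wild-type samples and 0 knockout samples. A second Serping1 probe, well above background in no sample, read -0.17 and 0.32 in dcKO. The other kinin genes, with Klkb1, F12 and the bradykinin receptors among them, were not well above background in at least 4 wild-type samples.

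Among the VSIG genes, Vsig10l read -0.06 and 0.22 and Vsig10 read -0.29 and -0.67 in dcKO, with adjusted p of 0.905 and 0.309, while Vsir, which encodes VISTA, was never well above background. Of the Shaker channels, Kcna4 read 1.02 and -0.23 and Kcna7 read 0.45 and 0.12, with adjusted p of 0.375 and 0.55. No collectin or surfactant gene other than Sftpd was detected in at least 4 wild-type samples. Among the peptidases related to FAP, 6 of 8 were detected, and all 8 lay between -0.14 and 0.26 in dcKO. Dpp4, which encodes the closest relative of FAP, read 0.14 and 0.30, and Prep read 0.21 and -0.25. The BMP and osteoblast partners of TMEM119 lay between -0.85 and 1.31 in dcKO, with Atf4 at 0.12 and -0.11 and Smad5 at -0.19 and -0.46. Bmp2, named after its values were seen, was highest at 1.69 and 0.93, with an adjusted p of 0.0826. Its fitted value without dcKO replicate 2, adjusted for dye, was 2.11.

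**Figure D3:**
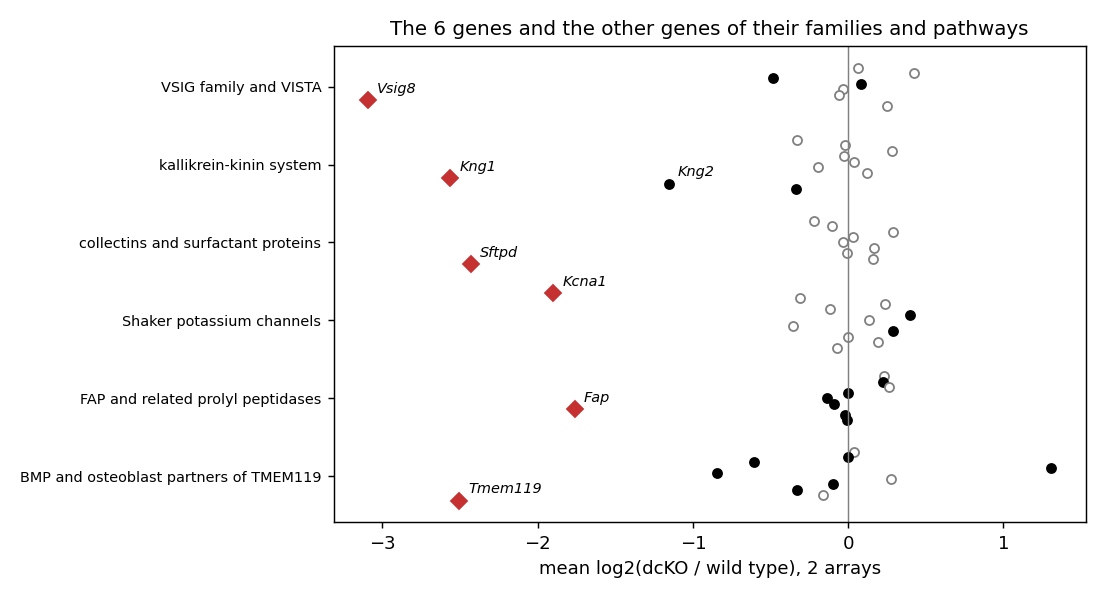
Mean log2 ratio of dcKO over wild type on 2 arrays (horizontal axis) for the 6 genes (red diamonds) and the 51 other genes of their families and pathways (rows). Filled circles are genes well above background in at least 4 wild-type samples and open circles the rest. The 6 genes lie from -3.09 to -1.76, which follows from how they were chosen, and Kng2 is nearest at -1.15.

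Markers of the other cell types for which some of these genes are known were set beside them. For Fap, 8 of the 9 dermal fibroblast markers were well above background in at least 4 wild-type samples, and their median log2 ratio was -1.63 and -1.36 in dcKO, -2.57 and 0.78 in Sox4cKO, and 0.94 and -0.65 in Sox11cKO. Of the 9 markers, 7 were below 0 on both dcKO arrays, while Dcn read 0.41 and 0.29 and Postn 0.72 and 0.44. The list median changed sign between replicates of both single knockouts, where Fap stayed between -0.76 and -0.32. Their summed level was 12.8 to 14.5 in the wild-type samples, with 13.7 and 13.2 on the dcKO arrays, and 13.3 and 13.1 in dcKO. Dcn, which was above 0 in dcKO, weighed heavily in this sum, with a mean wild-type level of 12.5. Col1a2, with a mean wild-type level of 10.7, read -2.05 and -2.01 in dcKO. None of the 9 was called in any genotype, and their part in the Fap values was not tested.

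For Tmem119, 5 of the 8 macrophage and microglia markers were detected, with medians of 0.13 and 0.49 in dcKO, and summed levels of 9.86 to 10.4 in wild type and 10.5 and 10.4 in dcKO. The microglia marker P2ry12 and the macrophage marker Adgre1 were never well above background. Of the 5 osteoblast markers, Alpl, Ibsp and Sp7 were never well above background. The list median of -0.18 and -0.08 in dcKO thus rests mostly on dim probes. Bglap, the 1 osteoblast marker detected in at least 4 wild-type samples, read -1.02 and -0.20 in dcKO, with an adjusted p of 0.137. For Kcna1, 5 of the 7 Schwann cell and neuron markers were detected, with medians of 0.19 and -0.10 in dcKO and summed levels of 11.8 to 12.3 in wild type and 12.2 and 11.6 in dcKO. S100b was never well above background. The medians of the macrophage and neuron lists were near wild type on the arrays where Tmem119 and Kcna1 were lowest.

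Of the epidermal layers, the basal markers had medians of -0.18 and -0.0035 in dcKO and the suprabasal markers 0.55 and 0.58. The periderm markers, all 6 of them detected, had medians of -1.10 and -1.04 in dcKO, with summed levels of 12.9 to 13.9 in wild type and 11.8 and 11.9 in dcKO. The periderm medians were 0.66 and 0.41 in Sox4cKO, where Vsig8, Kng1 and Sftpd were above 0 on both arrays, and -1.51 and -0.58 in Sox11cKO, where 5 of the 6 genes were above wild type on replicate 2. In Sox4cKO, 5 of the 6 periderm markers were above 0 on both arrays, and Krt17 went the other way at -0.91 and -0.97. In Sox11cKO, 4 were below 0 on both arrays, while Krt17 read -0.01 and 0.04 and Krt6a -1.02 and 0.28. Hair shaft and matrix markers had medians of 0.01 and -0.01 in dcKO. In dcKO, 3 of the 6 periderm markers passed the adjusted p in the lower direction, below the fold threshold: Krt4 at a mean of -1.497 (adjusted p 0.00174), Krt17 at -1.37 (0.00507) and Krt19 at -1.40 (0.0177). Krt4 was also the probe called between the single knockouts, at 2.46 for Sox4cKO minus Sox11cKO (adjusted p 0.0353). No marker of the basal, suprabasal, periderm and hair lists passed both thresholds in any genotype against wild type. The part of these markers in the values of the 6 genes was not tested.

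**Figure D4:**
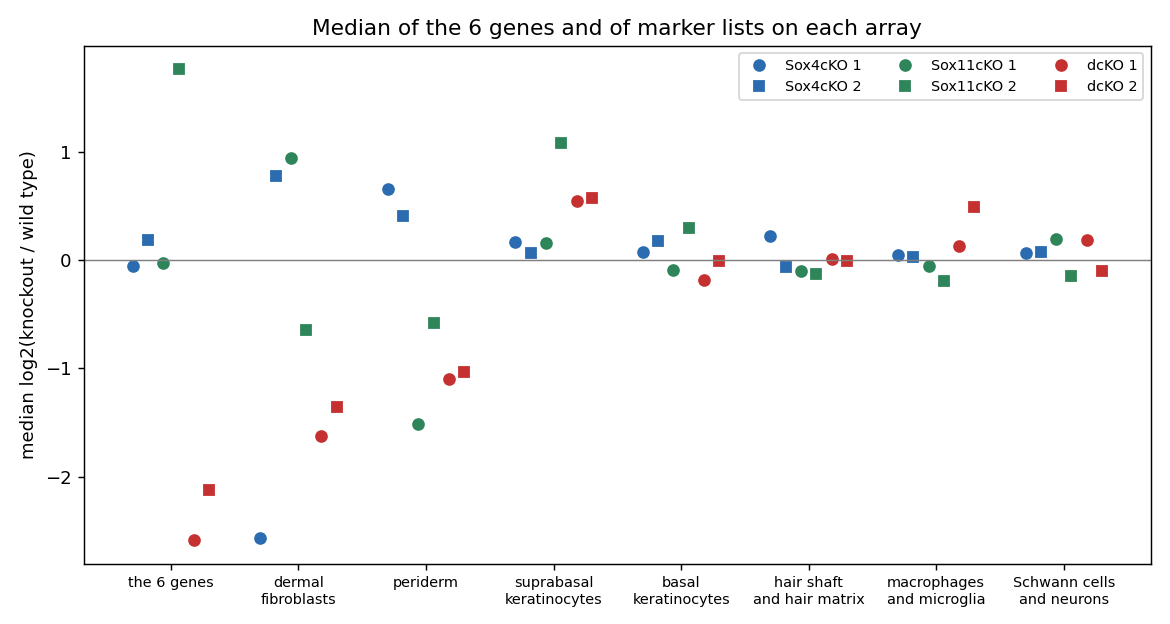
Median log2 ratio of knockout over wild type (vertical axis) of the 6 genes and of 7 marker lists (horizontal axis) on each array. Circles are replicate 1 and squares replicate 2. In dcKO the 6 genes are at -2.59 and -2.12, the fibroblast list at -1.63 and -1.36 and the periderm list at -1.10 and -1.04.

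Across the 6 arrays, the genes whose log2 ratios lay nearest to each member were found among 11607 genes well above background in at least 4 wild-type samples, by the root mean square difference. Nearest to Kcna1 was Hsd11b1, which encodes an enzyme that regenerates active glucocorticoid, with a difference of 0.23 and values of -0.57 and 2.04 in Sox11cKO and -1.91 and -1.52 in dcKO. Nearest to Vsig8 were the members Tmem119, Kng1 and Kcna1, at 0.66, 0.66 and 0.82. The 6 arrays include the dcKO arrays that chose the members, so that members lie near each other follows in part from the choice. Nearest to Kng1 were Vsig8, 2300002M23Rik and Kcna1, at 0.66, 0.81 and 0.83.

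Nearest to Tmem119 were Vnn1, which encodes a pantetheinase, Kcna1 and Pla2g4e, a phospholipase gene, at 0.60, 0.61 and 0.63. Kcna1 had Tmem119 and Gpx3, a secreted glutathione peroxidase gene, after Hsd11b1, both at 0.61. Sftpd stood with 2300002M23Rik, 2310034C09Rik and 2310057N15Rik, at 0.54, 0.67 and 0.69. These 3 shared with Sftpd the unequal dcKO replicates, from -3.68 to -3.06 in replicate 1 and from -1.06 to 0.08 in replicate 2, and values of 3.15 to 4.96 on Sox11cKO replicate 2. Fap stood apart from the other members, with Elf5, an epithelial transcription factor gene, and the matrix gene Fbln2 among its nearest genes at 0.37 and 0.38. Likeness over 6 arrays of 3 genotypes rests on few points that share samples and is given as a description.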

How the data were processed

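RNA was hybridised to Agilent 2-colour arrays, and the authors extracted spot intensity with Agilent Feature Extraction 11.0.1.1, per the file headers. The authors then applied limma (normexp with an offset of 16, loess within arrays). The deposited log2 ratios, 1 column per array, matched log2 of knockout over wild type recomputed from the deposited intensity values (slope 0.9999 to 1, r at least 0.99997), which settles scale and direction. The deposited log10 ratios of Feature Extraction served as an alternative, and deposited marks (0 or 1, unit other) gave the calls well above background.

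R 4.3.3 with limma 3.58.1 fitted all 55681 probes with 1 coefficient per genotype and 1 dye coefficient, which took the place of the ComBat step named in the methods. Where a gene had several probes, the brightest was used. Levels are log2 signals after loess and Aquantile normalization. Bounds compare a bright group with the lowest signal well above background, and dye bias within an array was not tested for them. Scripts were tested on simulated data. Genes were named through RefSeq accessions, giving 28341 probes a symbol. Figures were drawn with matplotlib 3.10.9.

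The named genes were the 6 members with all probes, the 3 nearest genes to each, related genes past the thresholds or the brightest 2 of a list, and Sox4 and Sox11; some named items are not reported here. The members and lists were chosen with earlier results of these data known. Replicate numbers coincide with the dye, so the dye coefficient is also the replicate block. In Sox4cKO and Sox11cKO they coincide with sex as well, with Y-linked transcripts on replicate 1 and Xist on replicate 2. Dye, replicate and sex cannot be told apart there, and wild-type samples compared across arrays can differ in dye and sex too. Same-numbered arrays deviated together, with correlations from 0.259 to 0.328, which the shared dye can also give. P-values rest on the spread left after the dye coefficient, pooled over the 3 genotypes and moderated over all probes. A replicate difference that the genotypes share is not counted in it. Each genotype had 2 biological replicates, and the fit had 2 residual and 6.65 prior degrees of freedom. The number of arrays limits the precision.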

Additional observations from a re-analysis of the deposited data

Results flagged for a closer look

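The following genes lay on one side of wild type on both arrays of a single knockout and on the other side on both dcKO arrays. The difference itself was not tested, since the dcKO values chose the 6 genes. Vsig8 had a mean log2 ratio of 0.47 in Sox4cKO against -3.09 in dcKO. Kng1 had 0.48 in Sox4cKO and 1.73 in Sox11cKO against -2.56 in dcKO. Tmem119 had 0.55 in Sox11cKO against -2.51 in dcKO. Sftpd had 0.33 in Sox4cKO and 2.17 in Sox11cKO against -2.43 in dcKO. Kng2, which is not one of the 6 genes, had 0.46 in Sox4cKO and 1.16 in Sox11cKO against -1.15 in dcKO, a difference that was not tested either.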

How the results depend on the processing

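In dcKO the median over the 6 genes was -2.47. It was -2.05 with an offset of 50, -2.85 with the Feature Extraction log ratios and -2.05 with the mean over all probes of a gene. Without background subtraction, 1 of the 6 genes was called in Sox11cKO, Sftpd, at 2.00 with an adjusted p of 0.0495. With arrays left out in turn, the count called in Sox11cKO ranged from 0 to 2, the median over the 6 genes in Sox4cKO from -0.38 to 0.82, the count called between the single knockouts from 0 to 1, where Sftpd was called at -2.91 (adjusted p 0.0214) without Sox4cKO replicate 1, and the count of related genes called from 0 to 1, the 1 being Bmp2 in dcKO without dcKO replicate 2. The fitted value of Kng1 in Sox11cKO was 2.80 without Sox11cKO replicate 1. A genotype left with 1 array takes the ratio of that array, adjusted by a dye coefficient estimated from the other genotypes.

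Median centring in place of loess turned the sign of Tmem119 in Sox4cKO (0.027) and of Fap between the single knockouts (0.22), and raw signals that of the Tmem119 wild-type shift (0.0717). With arrays left out in turn, values in Sox4cKO ranged from -0.32 to 1.26 for Vsig8, -0.24 to 1.20 for Kng1, -0.74 to 1.40 for Sftpd and -1.01 to 0.44 for Kcna1, and in Sox11cKO from -0.32 to 1.76 for Vsig8 and -0.37 to 1.81 for Kcna1. Sox4cKO minus Sox11cKO ranged from -0.38 to 0.34 for Fap, -1.29 to 0.79 for Vsig8 and -2.10 to 0.0839 for Kcna1. The causes were not tested. Without the replicate block the medians over the 6 genes were 0.13 in Sox4cKO, 0.72 in Sox11cKO and -2.47 in dcKO. These medians could not change, since each genotype had both dye orders. No call of the 6 genes changed without the block. Dim signal limits Kng1, Kng2 and Sox11 most.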
